A study of Mus musculus with 6 samples.

Results

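The genes described here encode the Musashi proteins and RNA-binding proteins often studied beside them: Msi1, Msi2, Rbpms, Celf1, Celf2, Igf2bp1, Igf2bp3, Lin28a, Lin28b and Elavl1. They were chosen by name, with earlier results of these data known. They are 10 of the 18193 genes measured, and each had at least 1 probe set on the array. RNA came from wild-type C57BL/6 mice, whose blood-forming cells were sorted by flow cytometry, and the labels name no treatment. Both populations were low in lineage markers and positive for the receptor Kit. LSK cells (Lineage low, Sca1+, Kit+), which the labels call haematopoietic stem cells, also hold multipotent progenitors. LK cells (Lineage low, Sca1-, Kit+) are committed progenitors, a mixture of several lineages. Each population had 3 arrays, numbered 1 to 3, and this number limits the precision of every value. Age, sex and the number of mice behind an array are not given in the sources used here.

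The marker genes followed the sort labels, with Sca-1 itself not analysed here. Of 5 measured stem cell markers, 5 were higher in LSK, and their summed intensity was 2643 to 3544 on the LSK arrays and 111 to 190 on the LK arrays. Of 5 measured erythroid markers, 4 were lower in LSK (55.0 to 128 against 2413 to 6012), and of 6 granulocyte and monocyte markers, 4 were lower (4329 to 8891 against 13239 to 24940). Of 4 lymphoid progenitor markers, 2 were higher (3284 to 3809 against 87.0 to 171, mostly Dntt), and the others, Il7r and Rag1, were both dim. Of 3 mast cell and basophil markers, 1 was lower (1047 to 1281 against 743 to 1797). Gata2 (log2 difference 0.60, not past the threshold) makes up most of that last sum. Ms4a2 (-1.83) was the lower marker, and Cpa3 (-2.98) did not pass. None of 4 megakaryocyte markers (128 to 171 against 174 to 433) passed the threshold. The same held for 2 B cell (12.1 to 13.4 against 13.4 to 21.7), 3 T and NK cell (607 to 1004 against 956 to 2520, with Cd3d and Cd3e both dim) and 3 endothelial and stromal markers (19.9 to 23.0 against 20.7 to 22.6). In such bulk RNA, fewer cells of a type and less RNA per cell cannot be told apart. The lineage markers moved with the comparison, and their part in the results that follow was not tested.

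Musashi proteins bind short motifs in messenger RNA through a pair of RNA recognition motifs and either hold back or promote translation. Musashi 2 is the form best known in blood, where it supports stem cell self-renewal and is linked to aggressive leukaemia, while Musashi 1 is best known in neural and intestinal stem cells. The other proteins act on splicing, stability or translation of RNA, and Lin28 proteins and the Igf2bp family are typical of fetal and embryonic cells.

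Of the 10 genes, 3 were higher in LSK than in LK (Msi2, Rbpms and Celf2), 0 were lower and 7 did not pass the threshold, an adjusted p under 0.05 in limma with Benjamini-Hochberg adjustment over all genes. Across all genes 3.84% were higher and 2.89% lower, 6.73% in either direction. The 3 arrays of LSK lay wholly above the 3 of LK for the same 3 genes, an arrangement that 13.2% of all genes showed. The median log2 difference, LSK minus LK, was -0.12 over the 10 genes and -0.02 over all genes, and 5 of the 10 were dim, with both population means below 4 on the log2 scale. The median probe set of each array lay between 2.98 and 3.09 on that scale, so differences among such dim genes can be compressed. Levels of different genes are not ranked, because each probe set binds with its own strength.

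**Figure D1:**
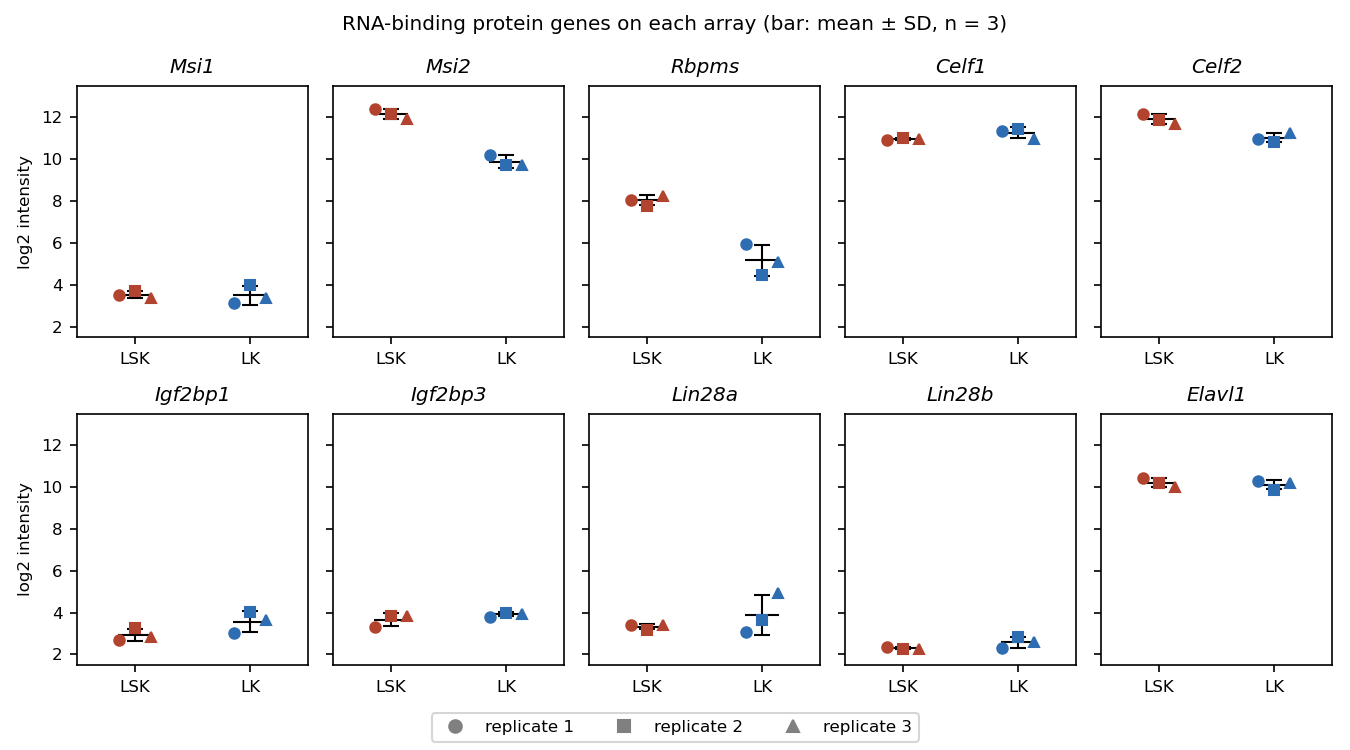
Log2 intensity of the representing probe set of each of the 10 genes on every array, with circles, squares and triangles for replicates 1, 2 and 3 and a black bar for the mean ± SD (n = 3). The LSK arrays of Msi2 (11.94 to 12.41), Rbpms (7.78 to 8.25) and Celf2 (11.67 to 12.14) lie above all of their LK arrays, and the other 7 genes overlap.

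Msi2 encodes Musashi 2, the protein in the title of the series. Its log2 intensity was 12.41, 12.18 and 11.94 on LSK replicates 1 to 3 and 10.22, 9.74 and 9.72 on LK replicates 1 to 3. Every LSK array lay above every LK array, and the gap between the populations was wider than the spread within either. LSK minus LK was 2.28 on the log2 scale (SE 0.20, 95% interval 1.80 to 2.76), a 4.86-fold higher level, and limma's adjusted p was 0.00331. Only 1.19% of the genes had a larger difference in either direction. Msi2 stayed past the threshold in all 6 fits that left out 1 array, with log2 differences from 2.17 to 2.45 and adjusted p from 0.00527 to 0.0213. With the mean of its 8 probe sets, dim ones included, the log2 difference was 1.42 (adjusted p = 0.00714).

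The 8 probe sets of Msi2 fell into a bright and a dim group. Bright ones had a mean log2 of 4 or more in at least 1 population. A probe set dim in LK thus counts as bright only if it is high in LSK, as 1441185_at was (LK mean 3.66). The 5 bright ones were all higher in LSK over all 45037 non-control probe sets, of which 2.03% were higher and 3.21% passed in either direction, with log2 differences of 2.28 (1435521_at), 2.23 (1436818_a_at), 2.34 (1435520_at), 2.00 (1421230_a_at) and 2.74 (1441185_at). Their 95% intervals overlapped one another. The annotation gives the same source sequence for 1435521_at and 1435520_at, so the probe sets are not all independent. It also gives 1 source sequence for 1421230_a_at and for the dim 1421231_at (log2 difference 0.11). The least bright of the 5, 1441185_at, read 6.37, 7.19 and 5.66 in LSK and 3.58, 4.02 and 3.39 in LK. The other 3 probe sets stayed between 2.50 and 3.54 on all arrays, with log2 differences from -0.18 to 0.11, and none passed.

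Msi2 lies on chromosome 11 of the assembly GRCm38.p6 (chr11:88339382-88718306, minus strand). The RefSeq promoter table of that assembly, whose windows run from 250 bases before to 50 after a start, held 13 windows for 7 of the 10 genes, and none for Msi1, Rbpms or Igf2bp1. The stretch just before the annotated Msi2 gene is shown because the gene had the lowest p of the 10. It is chr11:88718307-88718527, read on the minus strand, and capitals mark the letters CACGTG (an E-box that USF factors bind) and GGGCGG (a GC box that Sp1 binds), the latter on either strand:

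Msi2 promoter: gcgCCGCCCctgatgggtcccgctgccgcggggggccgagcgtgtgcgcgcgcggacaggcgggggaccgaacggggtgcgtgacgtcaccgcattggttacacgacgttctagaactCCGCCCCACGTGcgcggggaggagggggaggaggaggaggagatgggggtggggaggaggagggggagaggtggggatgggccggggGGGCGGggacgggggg

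The 221 bases hold 1 E-box and 3 GC boxes, and the E-box adjoins the second GC box without overlap. The whole Msi2 windows were 75.0% to 76.3% G and C, against a median of 52.7% for all windows, and had up to 1.03 times the CpG pairs that their base content predicts. A second E-box lies just after the most upstream start in the table. CACGTG, which reads the same on both strands, stood in 7.15% of all 32851 windows, and 2 copies in 0.594%. Besides Msi2 it stood in the windows of Igf2bp3 and Lin28b, genes whose RNA was at the dim end in both populations. The 5 sites are set side by side, 26 bases each and all on the minus strand, with the E-box in capitals:

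Msi2 site 1 (chr11:88718388-88718413): aactccgcccCACGTGcgcggggagg
Msi2 site 2 (chr11:88718257-88718282): gagccgagccCACGTGtgacgggctc
Igf2bp3 site 1 (chr6:49214962-49214987): tgggattcctCACGTGagacgttgat
Igf2bp3 site 2 (chr6:49214934-49214959): gtagtttgaaCACGTGgctcattcaa
Lin28b site (chr10:45470235-45470260): ttgacagagtCACGTGtgctcagggg

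In all, 8 strings were searched on both strands. GGGCGG stood in 35.7% of windows and in those of Celf1, Celf2, Lin28a and Msi2. The ETS core CCGGAA (14.9%), the homeobox string ATTAAA (13.9%) and the GATA string GATAAG (7.44%) stood in windows of Celf2 alone. The Myb core AACGG (17.4%) stood in windows of Celf2 and Msi2. Only 7 of the 10 genes had a window, and Celf2 had the most. The RUNX core TGTGGT (16.8%) and the Hox and Pbx string TGATTTAT (0.977%) stood in none of the 13 windows. A match is a description of the letters and shows no binding. Usf2 and Plag1 have been reported to drive the human counterpart of the Msi2 promoter. Neither passed the threshold: Usf2 had a log2 difference of -0.27 (limma adjusted p = 0.582) and Plag1, which was dim, -0.11 (0.771), with 0 of the 2 at an unadjusted p under 0.05.

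Msi1, the paralog, was dim in both populations. Its log2 intensity was 3.51, 3.69 and 3.36 in LSK and 3.14, 3.97 and 3.36 in LK. The ranges overlapped, with the highest and the lowest of the 6 values both in LK. The log2 difference was 0.03 (95% interval -0.53 to 0.59, limma adjusted p = 0.965). Of its 3 probe sets none passed the threshold. For 1421409_at the LSK arrays (3.20 to 3.61) lay above the LK arrays (2.97 to 2.99), with a log2 difference of 0.39 and a limma adjusted p of 0.228.

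Rbpms encodes an RNA-binding protein with a single RNA recognition motif, known as a splicing regulator of smooth muscle. Its log2 intensity was 8.08, 7.78 and 8.25 in LSK and 5.94, 4.48 and 5.09 in LK. The populations did not overlap, and the LK arrays were spread more widely (SD 0.73) than the LSK arrays (SD 0.24). LSK minus LK came to 2.87 on the log2 scale (SE 0.36, 95% interval 2.01 to 3.72), or 7.29-fold higher. The adjusted p from limma was 0.00879, and 0.605% of the genes had a larger log2 difference in either direction. With the mean of its 4 probe sets the log2 difference was 1.63 (adjusted p = 0.0102). It was lost only without LK replicate 3 among the fits that left out 1 array (log2 difference 2.83, adjusted p = 0.0502).

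The other 3 Rbpms probe sets lay in the same direction without overlap between populations. The log2 differences were 1.63 for 1437161_x_at (limma adjusted p over all probe sets 0.0547), 1.41 for 1429359_s_at (0.0745) and 0.60 for 1425652_s_at (0.066), so none of them passed. In LK they read at most 3.31. The lower end of the range limits how large these differences can be. The annotation gives 1437161_x_at the same source sequence as the representing probe set. Rbpms lies on chromosome 8 (chr8:33782643-33929922).

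Celf1 and Celf2 belong to a family that binds GU-rich elements and acts on alternative splicing and mRNA decay. Celf2 read 12.14, 11.90 and 11.67 in LSK and 10.95, 10.85 and 11.28 in LK, and the populations did not overlap. Celf2 was thus 0.88 higher in LSK on the log2 scale (SE 0.18, 95% interval 0.44 to 1.32), a factor of 1.84 (limma adjusted p = 0.0397). This call was near the threshold. Adjusted over all probe sets instead of genes it had an adjusted p of 0.0548, with the mean of its 7 probe sets it had a log2 difference of 0.61 (0.0509), and it passed in 1 of the 6 fits that left out 1 array. The other 5, without LSK replicate 1 (0.125) or 2 (0.0951) or without LK replicate 1 (0.104), 2 (0.0916) or 3 (0.0763), lost it.

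The 7 Celf2 probe sets gave different answers. The less bright 1439777_at read 7.97, 7.57 and 7.04 in LSK and 5.47, 5.81 and 5.75 in LK. Its log2 difference was 1.85 (95% interval 1.26 to 2.43), the only one of the 7 past the threshold over all probe sets (limma adjusted p = 0.0167). The probe set 1444152_at was also higher on every LSK array (4.71 to 6.04 against 3.55 to 4.04) but did not pass (1.54, adjusted p = 0.0661). In contrast, 1451154_a_at read 10.88, 11.19 and 11.07 in LSK and 10.62, 11.14 and 10.84 in LK, with a log2 difference of 0.18 (95% interval -0.23 to 0.59). The probe set 1450069_a_at had a log2 difference of 0.16 (95% interval -0.21 to 0.52). The intervals of these bright probe sets lie wholly below that of 1439777_at. The annotation gives the same source sequence, BB644164, for the representing probe set 1423895_a_at, for 1451154_a_at and for the dim 1451155_at. The remaining 2 probe sets were dim, with log2 differences of -0.14 and -0.17.

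Celf2 spans 856648 bases of chromosome 2 (chr2:6539694-7396341), and the promoter table lists 5 starts for it. Their windows differed in base content, from 46.3% to 54.0% G and C at 4 starts to 80.3% at chr2:6871986-6872285, whose CpG ratio was 1.02 against 0.258 to 0.392 at the others. The files do not tie a probe set to a start, so no probe set was assigned to one.

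Celf1 did not pass the threshold. It read 10.93, 11.04 and 10.96 in LSK and 11.37, 11.45 and 10.96 in LK, with a log2 difference of -0.29 (95% interval -0.68 to 0.11, limma adjusted p = 0.377). No LSK array lay above the LK array of the same number. One probe set lay the other way, with all LSK arrays above all LK arrays: 1427413_a_at read 8.16, 7.95 and 7.76 in LSK and 7.57, 5.63 and 7.36 in LK. Its log2 difference of 1.10 (95% interval -0.08 to 2.29) did not pass (adjusted p = 0.318), and the low value of LK replicate 2 stands apart from the other arrays.

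Elavl1 encodes HuR, which binds AU-rich elements and stabilises short-lived mRNAs. It read 10.41, 10.20 and 9.99 in LSK and 10.28, 9.86 and 10.19 in LK. The ranges overlapped, and the log2 difference was 0.09 (95% interval -0.33 to 0.51, limma adjusted p = 0.823). None of its 6 probe sets passed, and their log2 differences ran from -0.14 to 0.37. The interval of the representing probe set is narrow enough to leave out a change of the size seen for Msi2.

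**Figure D2:**
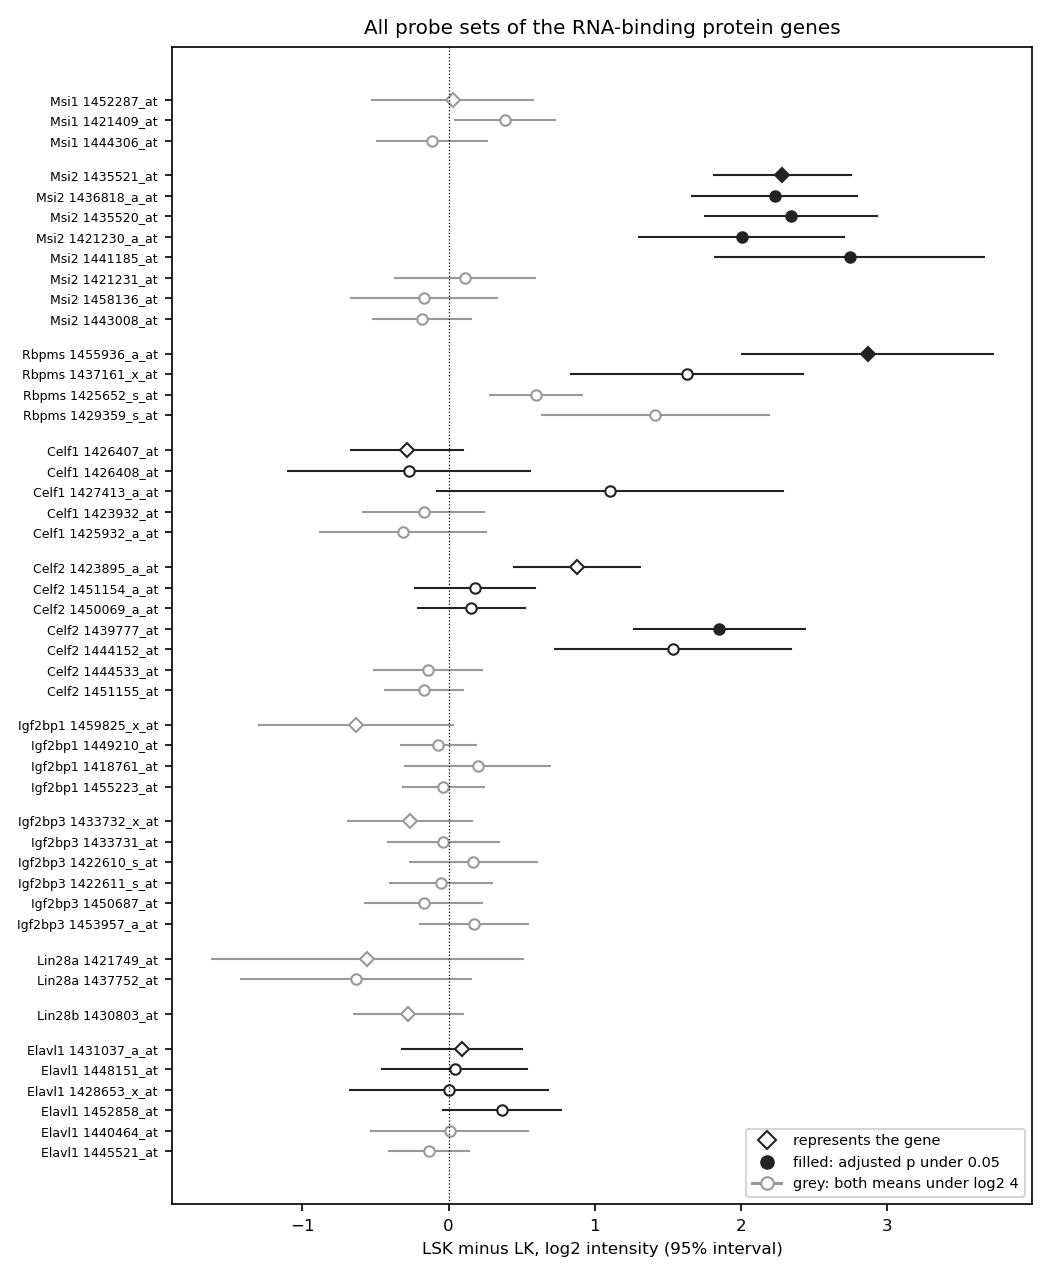
Log2 difference, LSK minus LK, with its 95% interval for all 46 probe sets of the 10 genes. Diamonds represent the gene, filled symbols have an adjusted p under 0.05 over all probe sets, and grey symbols have both means under a log2 of 4. The 7 filled symbols belong to Msi2 (5), Rbpms (1) and Celf2 (1), and 27 of the 46 are grey.

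The Igf2bp proteins bind and protect mRNAs and are made mainly before birth. Igf2bp1 read 2.69, 3.27 and 2.85 in LSK and 3.03, 4.005 and 3.67 in LK, with a log2 difference of -0.63 (95% interval -1.30 to 0.04, limma adjusted p = 0.249). LSK was below LK in each pair of arrays with the same number, but the ranges overlapped. Igf2bp3 read 3.30, 3.84 and 3.82 in LSK and 3.80, 3.9997 and 3.95 in LK, with a log2 difference of -0.27 (95% interval -0.70 to 0.17, adjusted p = 0.466). All 4 probe sets of Igf2bp1 and all 6 of Igf2bp3 averaged below a log2 of 4 in LSK and in LK, and none passed.

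Lin28a and Lin28b block the maturation of let-7 microRNAs, and Lin28b is known for setting fetal features of blood stem cells. Lin28b read 2.37, 2.26 and 2.28 in LSK and 2.32, 2.83 and 2.59 in LK, with a log2 difference of -0.27 (95% interval -0.66 to 0.11, limma adjusted p = 0.388). Lin28a read 3.39, 3.19 and 3.38 in LSK and 3.06, 3.63 and 4.94 in LK. LK replicate 3 stood above the other 5 arrays, also on the second probe set of the gene (4.14 against 2.56 to 3.17). The log2 difference of Lin28a was -0.56 (95% interval -1.62 to 0.51, adjusted p = 0.54), and -0.02 without LK replicate 3.

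To ask whether relatives changed unequally, one gene was subtracted from the other within each array and this quantity was compared between the populations. It describes the change and not which gene has the higher level. Celf1 and Celf2 were both bright. With their representing probe sets, LSK minus LK was 1.16 larger on the log2 scale for Celf2 than for Celf1. The populations did not overlap, and the two-sided exact permutation test gave p = 0.1, the smallest that 3 arrays against 3 allow (0.2 after adjustment over the 4 pairs compared). The size depends on the probe sets used. Log2 differences ran from -0.17 to 1.85 over those of Celf2 and from -0.31 to 1.10 over those of Celf1. With the mean of all probe sets they were 0.61 and 0.013. The other 3 pairs were Msi2 with Msi1, Igf2bp3 with Igf2bp1 and Lin28b with Lin28a. Each holds at least 1 dim gene, for which any change could be compressed, so no size is given for them. Their exact permutation p-values were 0.1, 0.3 and 1.

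A measure of 3' bias, used here to stand for RNA integrity, moved with the populations in part. A fit that holds both cannot fully tell them apart. For Actb and Gapdh, control probes at the 3' end minus those at the 5' end gave a log2 value, higher where RNA is more biased to its 3' end, that was 2.32 to 3.30 in LSK and 3.26 to 3.94 in LK (two-sided exact permutation p = 0.2). With this measure as a covariate, limma gave Msi2 a log2 difference of 1.92 (adjusted p = 0.101), Rbpms 2.60 (0.221) and Celf2 0.57 (0.575), so that 0 of the 10 genes passed, beside 25 of all genes (0.137%). Without both arrays numbered 2, which had a lower upper quartile of intensity (20.8 and 22.1) than the others (24.3 to 25.8), Msi2 (2.20, adjusted p = 0.0311) and Rbpms (2.65, 0.0308) passed and Celf2 did not (0.79, 0.145).

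Genes linked to these proteins were taken from lists of relatives, reported targets and partners, chosen with earlier results of these data known. With the integrity covariate, 0 genes of any of these lists passed. Among 7 measured relatives of the Celf and Elavl families, 0 passed in either direction (0 at an unadjusted limma p under 0.05, which 22.4% of all genes reached, and 0 in the fit with a block for the replicate number, which called 14.4% of all genes), and all 7 were dim, with means below a log2 of 4. The lowest p belonged to Celf4 (log2 difference 0.33, adjusted p = 0.329). Igf2bp2 and Rbpms2 are not analysed here.

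Of 10 measured genes reported to be bound or regulated by Musashi proteins, 3 passed toward LSK, 0 toward LK and 7 in neither direction, with a median log2 difference of 0.29 against -0.02 for all genes. Across all genes 3.84% passed toward LSK and 2.89% toward LK, the background for this list and the 3 that follow. An unadjusted limma p under 0.05, in either direction, was reached by 4 of the 10 and by 22.4% of all genes. Hoxa9, a homeobox factor of stem cells and leukaemia, read 9.79, 10.10 and 9.90 in LSK and 7.89, 7.83 and 7.40 in LK (log2 difference 2.23, SE 0.18, adjusted p = 0.00239). Ikzf2, the Ikaros family factor Helios, read 8.83, 9.16 and 8.75 in LSK and 7.26, 6.70 and 6.29 in LK (2.16, SE 0.26, adjusted p = 0.00793). Both kept the populations apart on every array. With the mean of all probe sets of a gene Hoxa9 had 1.43 (adjusted p = 0.0057) and Ikzf2 1.43 (0.0209), and without both arrays numbered 2 Ikzf2 did not pass (0.0574). Smad3, a transducer of TGF-beta signals, had a log2 difference of 0.79 (adjusted p = 0.0447), which did not pass without LSK replicate 1 (0.146), 2 (0.0941) or 3 (0.0796) or without LK replicate 2 (0.0992) or 3 (0.155). It fell short as well with the mean of all its probe sets (0.32, adjusted p = 0.173), with adjustment over all probe sets (0.0602) and without both arrays numbered 2 (0.14). The Notch inhibitor Numb, the classical Musashi target, read 4.78, 4.02 and 4.97 in LSK and 5.01, 5.11 and 5.29 in LK. Its log2 difference of -0.55 did not pass (limma adjusted p = 0.278). Myc, of the same list, did not pass either and had a lower adjusted p (log2 difference -0.45, adjusted p = 0.222). Numb and Myc were picked out after their values were seen.

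In the list of poly(A) and translation partners the median was -0.43. Of 6 measured 0 passed toward LSK, 1 toward LK and 5 in neither direction. An unadjusted limma p under 0.05 was reached by 4 of the 6, beside 22.4% of all genes. The lower gene was Pabpc4, a cytoplasmic poly(A)-binding protein, which read 6.37, 6.44 and 6.97 in LSK and 8.68, 7.68 and 8.14 in LK (log2 difference -1.57, SE 0.29, adjusted p = 0.0288). It did not pass without LSK replicate 1 (0.105) or 2 (0.0814) or without LK replicate 1 (0.0521) or 3 (0.102), nor without both arrays numbered 2 (0.0563).

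In the let-7 pathway, 1 of 12 measured genes passed toward LSK, 1 toward LK and 10 in neither direction, with a median of -0.19. With the block for the replicate number 3 of the 12 passed, in a fit that called 14.4% of all genes against 6.73% without it. In the main fit 6 of the 12 had an unadjusted limma p under 0.05, in either direction, beside 22.4% of all genes. Hmga2, a chromatin protein of fetal stem cells whose mRNA let-7 represses, read 9.08, 7.92 and 8.26 in LSK and 6.08, 4.58 and 4.67 in LK. Its level was higher in LSK by a log2 difference of 3.31 (9.95-fold, SE 0.47, limma adjusted p = 0.0133), and it did not pass without LSK replicate 1 (0.0541) or LK replicate 3 (0.062), nor without both arrays numbered 2 (0.0552). Xpo5, which exports microRNA precursors from the nucleus, was lower, at 3.92, 2.64 and 3.80 in LSK and 5.25, 5.21 and 5.13 in LK (-1.75, SE 0.33, adjusted p = 0.0323). It did not pass without LSK replicate 1 (0.0609) or without LK replicate 1 (0.0838), 2 (0.0776) or 3 (0.108).

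Among 11 measured mRNAs reported to be bound by Igf2bp proteins or Elavl1, 1 passed toward LSK, 0 toward LK and 10 in neither direction, with a median of 0.11. The higher gene was the hyaluronan receptor gene Cd44, with a log2 difference of 0.77 (SE 0.15, limma adjusted p = 0.0353). It passed in 1 of the 6 fits without 1 array, that without LSK replicate 3, and had adjusted p up to 0.121 in the others. It did not pass with the mean of all its probe sets (0.36, adjusted p = 0.124) or without both arrays numbered 2 (0.129). In the fit with the block 4 of the 11 passed, beside 14.4% of all genes against 6.73% without it. In the main fit 6 of the 11 had an unadjusted limma p under 0.05, in either direction, beside 22.4% of all genes.

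**Figure D3:**
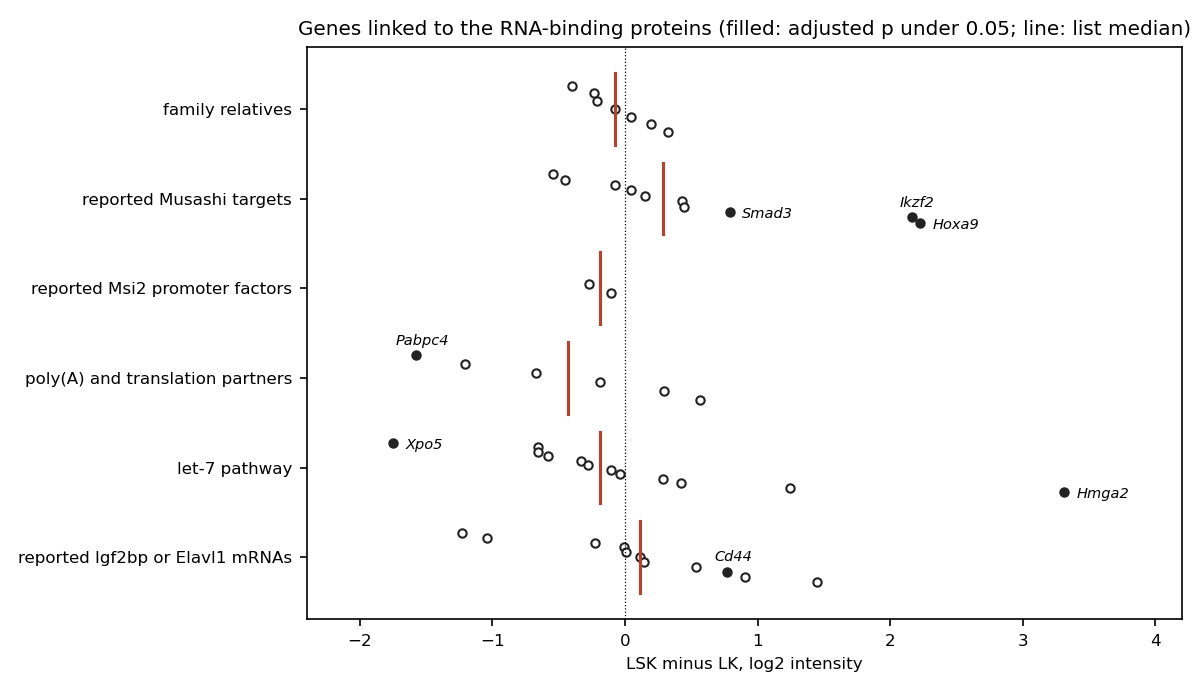
Log2 difference, LSK minus LK, of each measured gene in 6 lists linked to the 10 genes. Filled points have an adjusted p under 0.05 and are named, and the red line is the list's median. Hmga2 (3.31) lies farthest toward LSK and Xpo5 (-1.75) farthest toward LK.

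The genes most like Msi2 were found by the root mean square distance between log2 profiles over the 6 arrays, each centred on its own mean. The 5 nearest were Tmem176a (distance 0.11), Ablim1 (0.13), the receptor gene Calcrl (0.14), Crebrf (0.16) and Acot11 (0.16), with log2 differences from 2.12 to 2.41. The 5 nearest to Rbpms were the antiviral gene Rsad2 (0.083), the receptor gene P2ry14 (0.097), Itih5 (0.15), Jakmip1 (0.18) and Cnrip1 (0.19), with log2 differences from 2.63 to 3.05. Like Rbpms, all 5 had their lowest value of the 6 on LK replicate 2 and their highest LK value on LK replicate 1. They were chosen for likeness over these same arrays, so the shared order comes with the choice. The arrays fall into 2 populations, so this likeness is a description of 6 points and carries no test.

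**Figure D4:**
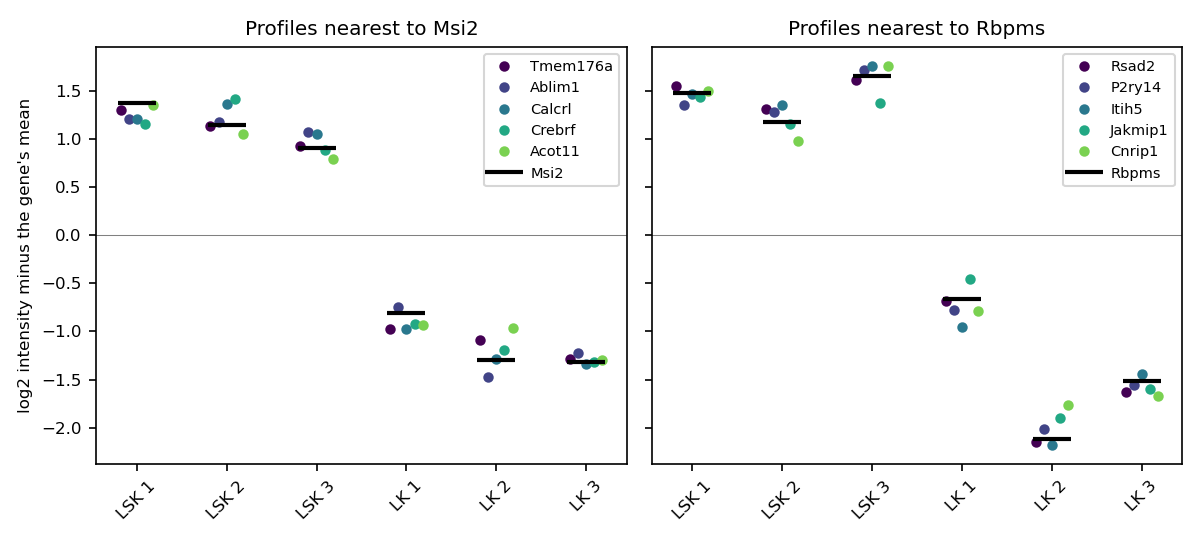
Log2 intensity minus the gene's own mean on each of the 6 arrays for Msi2 and Rbpms (black bars) and the 5 genes nearest to each (coloured points, shifted sideways so that they can be told apart). The points follow the black bars within 0.19 root mean square distance in both panels.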

How the data were processed

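The authors deposited 1 linear intensity per probe set and array, made with RMA (affy package, R 2.11.0), as the submitters' processing notes say. RMA equalises the arrays, which hides any shift common to all genes. Detection calls and the genome build are not given in the sources used here. Of 45101 probe sets, 64 controls were set aside, and 34945 had exactly 1 gene symbol, 932 several and 9160 no listing. For 34741 of them a RefSeq table, matched on gene identifiers, gave the current symbol. The probe set of highest mean log2 stands for its gene. The test was limma 3.58.1 in R 4.3.3 on log2 values (two-sided, with population as its sole term), which was tested on simulated data.

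Arrays with the same replicate number deviated together (correlation of deviations across genes 0.42, 0.43 and 0.27), so the numbers were taken to pair the arrays, from the data and not the labels. Because the labels state no pairing, the main fit leaves it out, and the block is an alternative fit. It called 14.4% of all genes against 6.73% in the main fit. The block changed no call of the 10 genes. The labels do not tie arrays to separate animals, and the p-values cover only variation among these samples, which may be technical. No 2 arrays were identical (0 of 15 pairs). The 10 genes, the 6 linked lists and 9 marker lists were chosen with earlier results of these data known. The rule named, per list, up to 3 genes in each direction past the threshold or the lowest p, and the 5 profiles nearest to Msi2 and to Rbpms. The alternatives were the replicate block, renewed normalisation, a dim filter at a log2 of 4, other probe set choices, other variance models, array weights, an RNA integrity covariate and leaving out arrays.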

Additional observations from a re-analysis of the deposited data

How the results depend on the processing

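Msi2 and Rbpms kept their direction in all 17 alternative fits. Some of these could not change it: the replicate block, the dim filter, adjustment over all probe sets, and trend and robust variances leave a log2 difference as it was. Msi2 lost the threshold with the RNA integrity covariate, and Rbpms with that covariate or without LK replicate 3. Under the replicate block, Msi2 had a log2 difference of 2.28 (adjusted p = 0.00183). Celf2 lost it in 9 of 17 fits, among them the mean of all probe sets (0.61, adjusted p = 0.0509), and rose to 1.85 (0.0122) with only probe sets that have no _s, _x or _a suffix. The count of the 10 genes was 0 with the covariate and 1 to 3 without 1 array. Of values that never passed, some changed sign. Msi1 had -0.053 after renewed quantile and -0.014 after loess normalisation, and -0.15 to 0.27 without 1 array. Elavl1 had -0.27 with the covariate, -0.033 without both arrays numbered 2 and -0.034 to 0.20 without 1 array. With the mean of all probe sets Celf1 had 0.013 and Usf2 0.18. The cause of these changes was not tested.

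The count over all genes, 1225, became 2617 with the replicate block, 2606 with array weights, 25 with the covariate, 537 without both arrays numbered 2 and 306 to 1269 without 1 array. Reported Musashi targets past the threshold numbered 2 with the mean of all probe sets or adjustment over all probe sets, 0 with the covariate, 1 without both arrays numbered 2 and 2 to 3 without 1 array. The let-7 count was 0 with the covariate and 0 to 2 without 1 array. The count of poly(A) and translation partners was 2 with array weights, 0 with the covariate or without both arrays numbered 2, and 0 to 3 without 1 array. That of reported Igf2bp or Elavl1 mRNAs was 4 with the replicate block or array weights, 3 with trend and robust variances, 2 with renewed quantile or loess normalisation or the dim filter, 0 with the mean of all probe sets, the covariate or without both arrays numbered 2, and 0 to 1 without 1 array. With 3 arrays a group, and 7968 of 18193 genes at a log2 of 4 or more in at least 1 population, small differences of dim genes cannot be resolved.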
